A study of Mus musculus with 12 samples.

Results

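The genes described here are 10 genes of the cornified envelope, the toughened shell that squamous epithelial cells build under their plasma membrane, read in 6 colon libraries of a mouse model of ulcerative colitis (UC). They were taken by symbol from a table of 53801 genes: Abca12, Sprr1a, Sprr1b, Sprr3, Ivl, Tgm1, Tgm3, Trp63, Dsg3 and Evpl. The set was selected because Abca12 was very high in 2 of the 6 libraries, so the level of Abca12 is given as a description and supports nothing. Of the 10 genes, 7 had a value in the authors' normalized colon table, which lists 32689 genes, and 3 were counted 0 in every colon library. Of all 53801 genes, coding or not, 20957 were counted 0 there, the background for each such count below.

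The animals were male C57BL/6 mice, 8 weeks old, and each library is total RNA of 1 mouse. In the mice labelled UC (numbers 1, 2 and 4), dextran sulfate sodium (DSS), a polymer that injures the gut lining, was given at 1.5% in the drinking water for 7 days. The mice labelled control (7, 8 and 9) had the same water without DSS, and all were killed on day 8. According to the study's methods, the sequenced mice were selected by their disease activity score. Blood libraries of the same 6 mouse numbers served as a second tissue.

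Cornified cells line the skin, the mouth, the oesophagus, the mouse forestomach and the anal canal, whereas the colon is lined by a simple columnar epithelium. In a cornifying cell, precursor proteins such as involucrin (Ivl), loricrin (Lor), envoplakin (Evpl) and the small proline-rich proteins (the Sprr genes) are crosslinked by the transglutaminases Tgm1 and Tgm3, and lipids delivered with the help of the transporter Abca12 are attached to the outside. Desmoglein 3 (Dsg3) holds squamous cells together at desmosomes, and the transcription factor p63 (Trp63) maintains their basal layer. Several Sprr genes and Tgm1 are also known outside the skin as genes that epithelia use under stress.

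Total counts in the colon ranged from 69181049 to 103662306 per library, and the 3 libraries labelled UC held the 3 highest totals. In the blood they ranged from 80867247 to 142536804. Normalized counts are the authors' counts divided by 1 factor per library. In the colon, the simple epithelial keratin Krt8 was at 303492 to 463694 normalized counts in every library. The disease labels went against a list of 10 inflammation genes, all of which had their 3 highest colon values in mice 1, 7 and 9, of which mouse 1 is labelled UC and mice 7 and 9 are labelled control. S100a8, a neutrophil calcium-binding protein gene, stood at 5370, 33.1 and 22.3 normalized counts for mice 1, 2 and 4 and at 1888, 75.6 and 13337 for mice 7, 8 and 9. The authors' normalized colon table lists its columns in the order of mice 1, 7, 9, 2, 4 and 8. The study lists Saa3 and Abca12 among its most upregulated genes in UC colon. By the labels used here, Saa3 is lower under UC and Abca12 about equal, so the published contrast is not the one these labels give. The published direction of both genes is the one that mice 1, 7 and 9 over mice 2, 4 and 8 give, the grouping of that column order. Whether the labels or that grouping match the treatment each mouse had cannot be told from the files used here. The groups are therefore called the libraries labelled UC and labelled control.

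Promoter sequence is shown for 4 members, chosen to set a detected Sprr gene beside an undetected precursor gene, Abca12 and the member with the highest level, Tgm3. RefSeq (GRCm38.p6) had a promoter of 300 bases, 250 before and 50 after the start site, for 7 of the 10 members. The 250 bases before the start are printed 5′ to 3′ on the strand of the gene, in lower case. Capitals mark matches to TGANTCA and to the TATA box TATAAA, each searched on both strands of the 300 bases. TGANTCA, with any base at N, is a loose form of the binding element of the AP-1 factors, and its matches are called AP-1 matches. The windows lie at chr3.0:92485882.0-92486131.0 (minus strand), chr3.0:92573736.0-92573985.0 (minus), chr1.0:71414911.0-71415160.0 (minus) and chr2.0:130012090.0-130012339.0 (plus).
Sprr1a: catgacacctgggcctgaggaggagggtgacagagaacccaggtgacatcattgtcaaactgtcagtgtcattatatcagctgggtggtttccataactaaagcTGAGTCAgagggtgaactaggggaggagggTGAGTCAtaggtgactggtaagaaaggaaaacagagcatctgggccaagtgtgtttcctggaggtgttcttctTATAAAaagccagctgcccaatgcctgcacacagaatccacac
Ivl: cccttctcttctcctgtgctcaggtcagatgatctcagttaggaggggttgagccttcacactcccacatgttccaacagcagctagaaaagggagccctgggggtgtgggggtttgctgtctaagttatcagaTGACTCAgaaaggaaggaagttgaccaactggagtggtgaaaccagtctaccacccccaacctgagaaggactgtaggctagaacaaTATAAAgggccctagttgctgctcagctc
Abca12: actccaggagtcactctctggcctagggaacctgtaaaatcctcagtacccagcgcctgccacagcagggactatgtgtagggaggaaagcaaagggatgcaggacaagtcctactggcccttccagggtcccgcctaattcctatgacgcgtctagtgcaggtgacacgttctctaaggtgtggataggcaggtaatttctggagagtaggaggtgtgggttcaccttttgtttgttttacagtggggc
Tgm3: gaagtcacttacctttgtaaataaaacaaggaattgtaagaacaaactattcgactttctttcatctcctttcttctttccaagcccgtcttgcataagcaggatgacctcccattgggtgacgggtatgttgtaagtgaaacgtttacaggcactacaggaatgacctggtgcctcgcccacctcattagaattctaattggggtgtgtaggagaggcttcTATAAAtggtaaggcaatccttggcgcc
The Sprr1a promoter holds 2 AP-1 matches, which begin at -146 and -116 from the start, and a TATA match at -43. The Ivl promoter holds an AP-1 match at -116 and a TATA match at -29. That of Sprr1b holds a TATA match at -30 and a match to the loose form at -111, which reads TGAATCA. The AP-1 matches read TGAGTCA in Sprr1a and TGACTCA in Ivl. Sprr3 and Tgm3 have a TATA match only, at -33 and -28. Neither motif was found in the Abca12 window or in the 2 windows listed for Tgm1. Among 32851 promoters of this length, 7.81% hold TGANTCA and 13.6% hold TATAAA. The match in Ivl stands beside 0 counts in all colon libraries and the matches in Sprr1a beside counts in every one.

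The members did not move together. Abca12 was high in mice 1 and 7, Sprr1a, Tgm1 and Dsg3 were highest in mice 1, 7 and 9, and Tgm3 and Evpl were highest in mice 2, 4 and 8. Trp63 was near the limit of detection in all 6 libraries.

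Abca12 (ENSMUSG00000050296, chr1:71242276-71414910, minus strand, GRCm38) encodes the lipid transporter whose loss in people causes harlequin ichthyosis. Mice 1, 2 and 4, labelled UC, carried 24321, 2.61 and 0 normalized counts, and mice 7, 8 and 9, labelled control, carried 24051, 0 and 25.2. Each labelled group thus held 1 library at about the same high level and 2 at or near 0. The second highest library, mouse 7, had 19019 counts and the third, mouse 9, had 28, a ratio of 955 after normalization, with an exact 95% interval of 660 to 1437 that covers counting error only. No count was found in any of the 6 blood libraries.

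**Figure D1:**
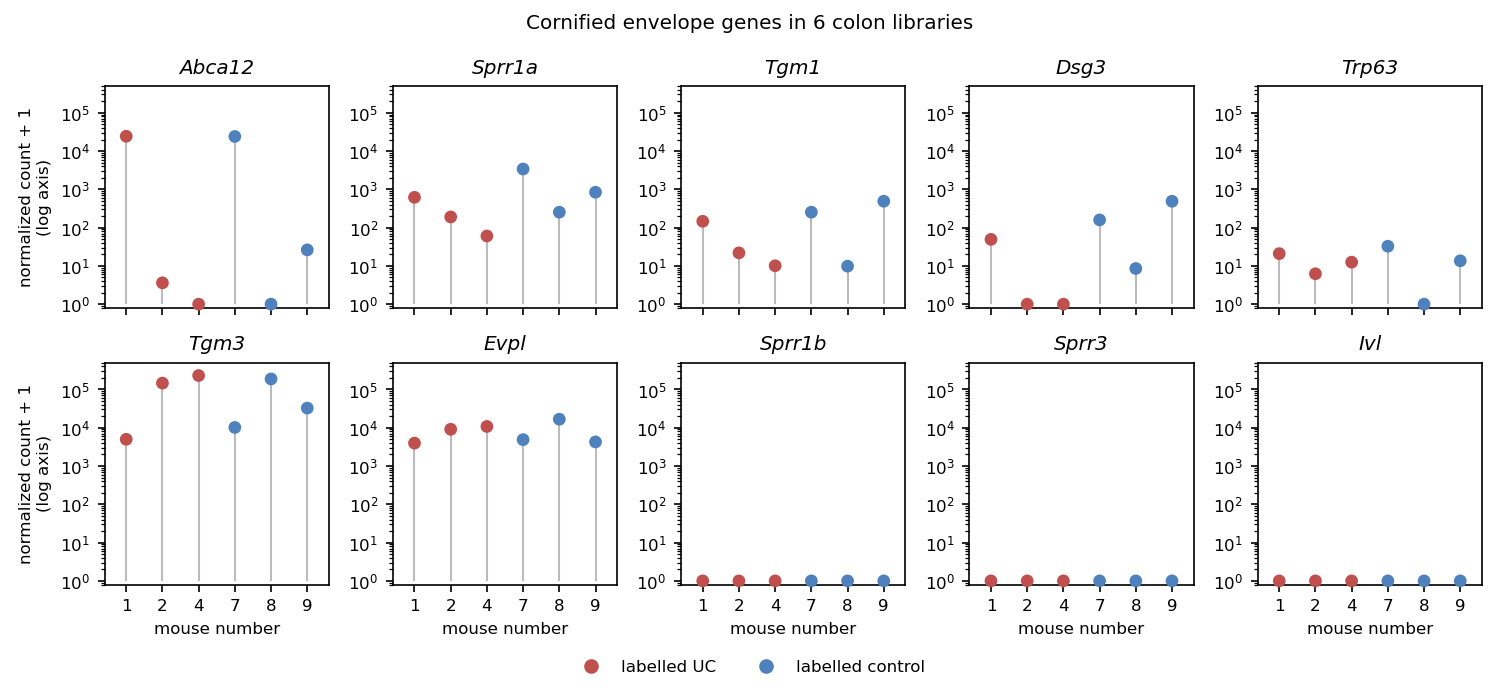
Normalized count + 1 of the 10 members (vertical log axis, 1 panel a gene) in the colon library of each mouse (horizontal axis), red for libraries labelled UC and blue for those labelled control. Abca12 reached 24321 for mouse 1 and 24051 for mouse 7, with 25.2 or less elsewhere, Tgm3 and Evpl were lowest in mouse 1, and Sprr1b, Sprr3 and Ivl were at 0 throughout.

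Among the envelope precursors, Sprr1a (ENSMUSG00000050359, chr3:92483952-92485895, minus strand) stood at 617, 189 and 59.4 normalized counts for mice 1, 2 and 4 and at 3394, 252 and 838 for mice 7, 8 and 9. The highest library, mouse 7, was 57.2 times the lowest, mouse 4. The labelled groups overlapped, since mouse 8, labelled control, lay below mouse 1, labelled UC. Its neighbours Sprr1b (chr3:92436809-92438789), Sprr3 (chr3:92456502-92458720) and Ivl (chr3:92570902-92573735), all on the minus strand, had 0 counts in all 12 libraries of colon and blood. With 3 counts as the limit that a count of 0 allows, the upper limit of their level was a CPM of 0.0289 to 0.0434 in the colon libraries and of 0.0210 to 0.0371 in the blood libraries.

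Evpl (ENSMUSG00000034282, chr11:116220559-116238077, minus strand), a plakin that ties the envelope to desmosomes and is expressed in simple epithelia too, was present in every colon library. Mice 1, 2 and 4 carried 3964, 9113 and 10789 normalized counts and mice 7, 8 and 9 carried 4884, 16710 and 4257. It varied least among the members, with a highest library 4.22 times the lowest.

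The crosslinking enzymes went opposite ways. Tgm1 (ENSMUSG00000022218, chr14:55700009-55713926, minus strand), the membrane-bound transglutaminase of keratinocytes, stood at 145, 20.9 and 9.07 normalized counts for mice 1, 2 and 4 and at 252, 8.82 and 488 for mice 7, 8 and 9. Tgm3 (ENSMUSG00000027401, chr2:130012349-130050399, plus strand), a transglutaminase of hair follicles and upper epidermis, stood at 4992, 146434 and 230884 for mice 1, 2 and 4 and at 10166, 188090 and 32616 for mice 7, 8 and 9. The 3 libraries with the least Tgm3 were therefore the 3 with the most Tgm1. Tgm3 differed 46.3-fold and Tgm1 55.3-fold between their highest and lowest libraries. An antisense gene, Gm49067, overlaps Tgm1 on the opposite strand, and since the quantification was not set to use strand, reads of that pair cannot be told apart.

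Of the junction and regulator genes, Dsg3 (ENSMUSG00000056632, chr18:20510274-20547459, plus strand) stood at 48.3, 0 and 0 normalized counts for mice 1, 2 and 4 and at 158, 7.56 and 487 for mice 7, 8 and 9. It was detected in 4 of 6 libraries, and its highest value was in mouse 9. Trp63 (ENSMUSG00000022510, chr16:25683763-25892102, plus strand) had 19.9, 5.23 and 11.5 in mice 1, 2 and 4 and 31.6, 0 and 12.6 in mice 7, 8 and 9. Although its 3 highest values were also in mice 1, 7 and 9, the third exceeded the fourth by a factor of only 1.09, against 6.93 for Tgm1 and 6.39 for Dsg3. A pseudogene on the same strand, Gm27005, lies within the span of Trp63.

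The order of the libraries was counted for the 7 detected members. For 5 of them (Abca12, Sprr1a, Tgm1, Trp63 and Dsg3) the 3 highest libraries were mice 1, 7 and 9, an order that 18.2% of the 22175 colon genes with a mean of at least 10 normalized counts shared. For the other 2, Tgm3 and Evpl, they were mice 2, 4 and 8, an order that 14.7% of genes shared. The 2 highest libraries were mice 1 and 7 for Abca12 and Trp63, and for 11.8% of genes. Abca12's own order took part in choosing the set, so these counts are descriptions. The inflammation genes have their 3 highest values in mice 1, 7 and 9 too, and their part in these values was not tested.

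Levels of different genes were compared per kilobase of exon. Tgm3 was the highest, with a mean of 24715 normalized counts per kb (1207 to 55837 over the libraries), followed by Evpl with 1298 (621 to 2617) and Sprr1a with 1106 (73.7 to 4211). Abca12 had a mean of 545 (0 to 1642), Tgm1 of 48.7 (2.79 to 154), Dsg3 of 16.7 (0 to 69.8) and Trp63 of 1.61 (0 to 3.77). The ranges of each gene and the next in this order overlapped over the libraries. Within the libraries, Tgm3 was above Evpl in 6 of 6 and Tgm1 above Dsg3 in 6 of 6. Sprr1a was above Abca12 in 5 of 6, Dsg3 above Trp63 in 4, Evpl above Sprr1a in 3 and Abca12 above Tgm1 in 2, so these neighbours have no fixed order. In mouse 1 the Abca12 level, 1642 per kb, lay above Tgm3 at 1207, whereas in mouse 4 Tgm3 was at 55837 and Abca12 at 0.

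The design sets colon of mice given DSS against control colon, and the comparison was made with the libraries as labelled. Because the inflammation genes went against the labels, a log2FC or a count of SDE genes below is one between labelled groups and may not be that of DSS against control. edgeR's quasi-likelihood test was fitted to 22238 genes, and SDE (significantly differentially expressed) genes were those with a Benjamini-Hochberg adjusted p no higher than 0.05 and a log2FC beyond 1 in either direction. None of the 7 tested members was SDE, where 0.00450% of all genes were, that is 1 gene, Gm26712, named here after its values were seen. With so few genes called, the absence of SDE genes among the members or in a list below says nothing particular about them. An unadjusted p under 0.05 was reached by 0 of the 7, against 1.41% of all genes. DESeq2 called 0 of the 6 members to which it gave an adjusted p, and it gave none to Abca12. In 0 of the 7 were the labelled groups free of overlap, against 5.67% of all genes.

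The mean normalized count of Sprr1a was 288 ± 292 (SD, n = 3) under the UC label and 1495 ± 1671 under the control label, a log2FC of -2.39 (SE 1.16; edgeR, unadjusted p 0.0810, adjusted p 0.9999). For Tgm1 the means were 58.3 ± 75.2 and 249 ± 239, and the log2FC was -2.10 (SE 1.45; edgeR, adjusted p 0.9999). Dsg3 had the largest fitted difference of the members, with means of 16.1 ± 27.9 and 217 ± 245 and a log2FC of -3.76 (SE 2.07; edgeR, adjusted p 0.9999). In these 3 genes the SD was close to or above the mean in both groups. Tgm3 had means of 127437 ± 114138 and 76957 ± 96896 (log2FC 0.70, SE 1.41), and Evpl of 7955 ± 3557 and 8617 ± 7016 (log2FC -0.14, SE 0.63). Trp63 had means of 12.2 ± 7.36 and 14.7 ± 15.9 (log2FC -0.28, SE 1.21). For these genes too the edgeR adjusted p was 0.9999, so a difference between the labelled groups was not detectable beyond the spread within them. The median log2FC was -0.28 over the 7 members and -0.01 over all genes tested.

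**Figure D2:**
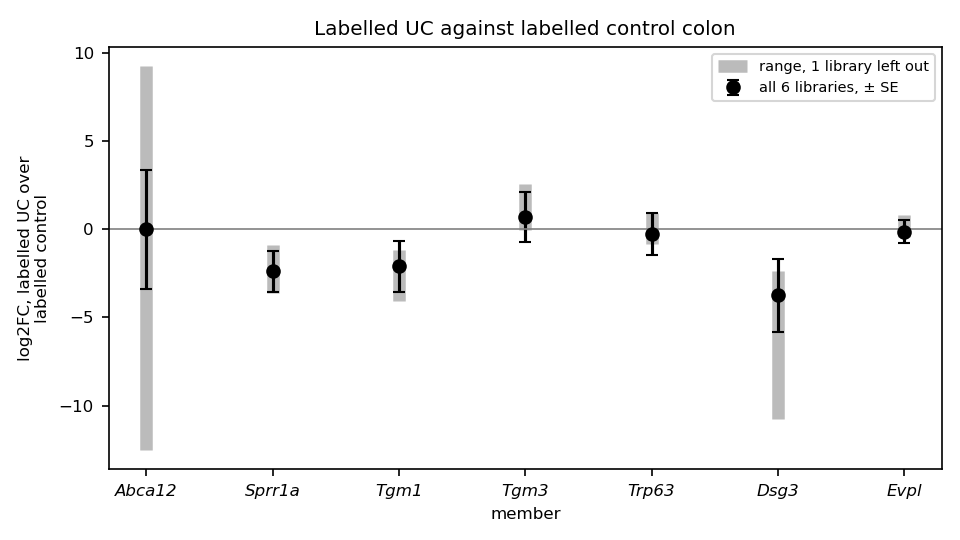
log2FC of the 7 tested members, libraries labelled UC over those labelled control (vertical axis), with points for the edgeR fit of all 6 colon libraries, black bars for ± 1 SE and grey bars for the range when 1 library at a time was left out. The grey bar of Abca12 runs from -12.51 to 9.23, and those of Sprr1a, Tgm1 and Dsg3 stay below 0.

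With 1 library left out at a time, the log2FC of Sprr1a ran from -3.60 to -0.92, that of Tgm1 from -4.05 to -1.20 and that of Dsg3 from -10.77 to -2.40. The fitted log2FC of Abca12 went from -12.51 without mouse 1 to 9.23 without mouse 7, since each labelled group holds 1 high library. Without mice 1 and 7 together, Abca12 and Dsg3 no longer passed the filter on low counts, and the log2FC was -2.13 for Sprr1a, -4.04 for Tgm1, 0.75 for Tgm3, -0.10 for Evpl and 0.35 for Trp63.

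The name of the set was then checked against squamous marker genes, some of which were at or near 0 and others present at low level. Krt5, the keratin of basal squamous cells, ran from 0 to 9.0 normalized counts, Krt4 of mouth and oesophagus from 0 to 8.10, and Krt1 of epidermis from 0 to 7.59. Loricrin (Lor) was at 0, 5.23 and 4.95 in mice 1, 2 and 4 and at 0, 13.9 and 0 in mice 7, 8 and 9, and filaggrin (Flg) had a count in mouse 8 alone. The partner of Krt5, Krt14, was at 54.0 to 218 and highest in mouse 1. Krt13 was at 13.9 to 172, with 26.5 in mouse 1 and 86.0 in mouse 7, and Krt6a, named after its values were seen, was at 5.68 in mouse 1 and 144 in mouse 7. The list of 13 squamous keratins summed to 437 to 847 normalized counts per library, against 303492 to 463694 for the simple keratin Krt8 alone. In mouse 1, where Abca12 was highest, Krt5, Krt4, Lor and Flg were all at 0, and in mouse 7 Krt5 was at 3.79 and the other 3 at 0. In the libraries with Abca12, the markers Krt5, Krt4, Lor and Flg were thus at or near 0 while Krt14 in mouse 1 and Krt13, Krt6a and Krt6b in mouse 7 were present at low level. Mouse 9, the highest library for Dsg3 and Tgm1, was also the highest for Krt13 (172), Krt5 (9.0) and Krt4 (8.10). It was highest too for the squamous genes Dsc3 (64.8) and Spink5 (82.8). In the same library Krt1, Lor and Flg were at 0 and Krt14 was at its lowest, 54.0. Mouse 7 was highest for Krt6a (144) and Krt6b (330) and second highest for Krt13 (86.0) and Dsc3 (54.4). Cst6, listed with the envelope precursors, was at 249 in mouse 1 and 195 in mouse 7, with 34.2 or less elsewhere. The markers were mixed in mice 1, 7 and 9, and squamous tissue in these libraries was not tested. The genes are called here by name.

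Of the other squamous keratins, Krt6b, a keratin of wounded and hyperproliferative epithelium, stood at 11.4, 0 and 3.30 normalized counts for mice 1, 2 and 4 and at 330, 17.6 and 135 for mice 7, 8 and 9. It was the only gene of its list with an unadjusted p under 0.05 (log2FC -5.04, SE 1.47; edgeR, unadjusted p 0.0124, adjusted p 0.9999). Krt17 ran the other way, with 6.63, 258 and 275 in mice 1, 2 and 4 and 83.5, 117 and 30.6 in mice 7, 8 and 9, and Krt78, a keratin of upper squamous layers, ran from 32.9 in mouse 7 to 247 in mouse 4. Of the 13 keratins, 8 had a mean of at least 10 normalized counts. Of these 8, 1 had its 3 highest libraries in mice 1, 7 and 9, against 18.2% of all genes. Another 3 of the 8 had them in mice 2, 4 and 8, against 14.7%, and 0 of the 7 tested were SDE.

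**Figure D3:**
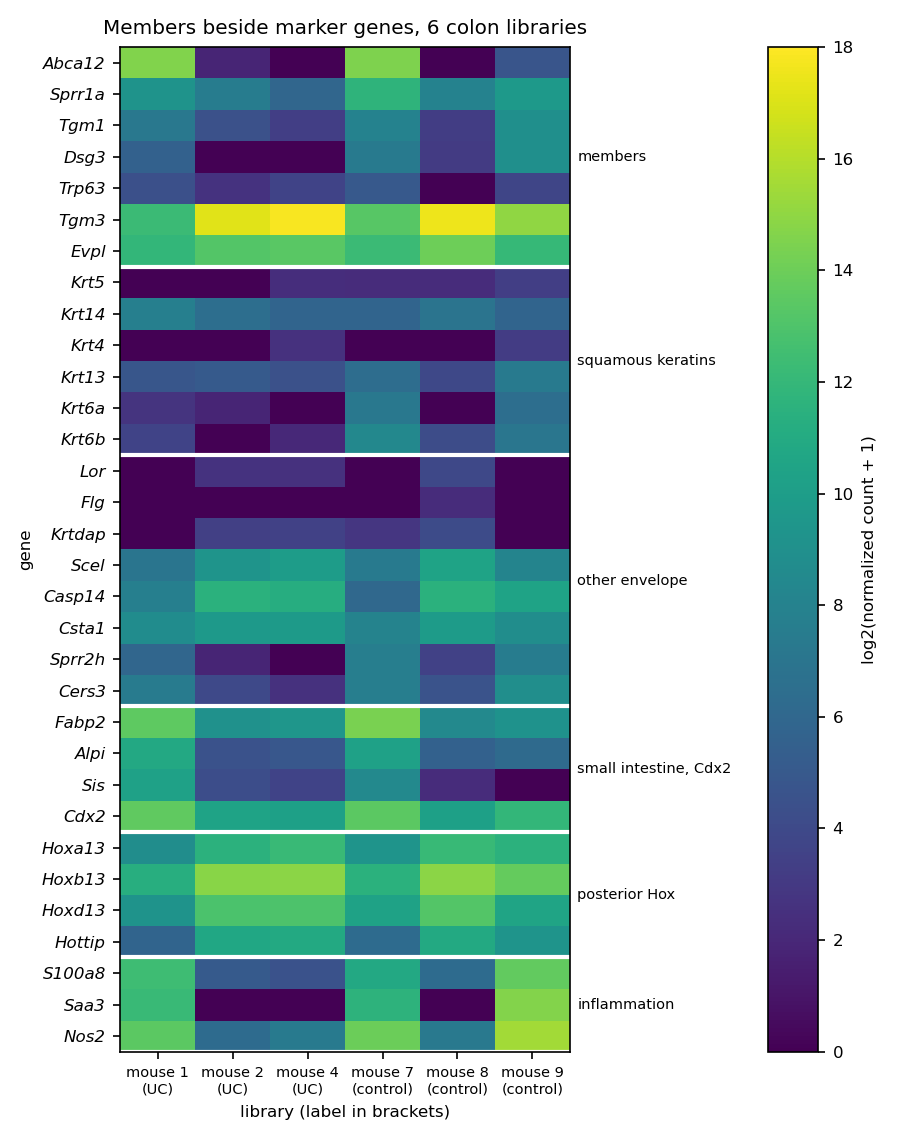
log2(normalized count + 1) as colour (0 to 18, dark to bright) for the 7 detected members and for marker genes of other tissues and states (rows, with the lists named at the right) in the 6 colon libraries (columns, in the order of the labels). Abca12 and the small intestine genes Fabp2 and Alpi are brightest in mice 1 and 7, the posterior Hox genes and Tgm3 in mice 2, 4 and 8, and the inflammation genes in mice 1, 7 and 9, while Krt5, Krt4, Lor and Flg stay dark.

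The other envelope precursors and their relatives numbered 35, of which 12 were counted 0 in all 6 colon libraries, among them 6 late cornified envelope (Lce) genes and hornerin. The highest were Sprr2a1, Sprr2a2, Sprr2a3 and Casp14. Sprr2a1 ran from 150027 to 346616 normalized counts, Sprr2a2 from 165939 to 389082 and Sprr2a3 from 29359 to 78412, and all 3 were lowest in mouse 2. These are near-identical copies that share reads, so their split is uncertain. The Sprr2a genes were thus high in every colon library, while Sprr1a, a gene of the same cluster, differed 57.2-fold among them. Sprr2h, at 61.6, 2.61 and 0 in mice 1, 2 and 4 and 210, 10.1 and 185 in mice 7, 8 and 9, had the same 3 highest libraries as Sprr1a, and was named after its values were seen. Casp14, a protease of cornifying cells, had 214, 2880 and 2362 in mice 1, 2 and 4 and 68.3, 2910 and 1360 in mice 7, 8 and 9, with the same 3 highest libraries as Tgm3. Of the 13 with a mean of at least 10 normalized counts, 4 had their 3 highest libraries in mice 1, 7 and 9. Another 4 had them in mice 2, 4 and 8, against 18.2% and 14.7% of all genes for these orders. Of the 14 tested, 0 were SDE (median log2FC -0.22, against -0.01 over all genes).

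Most of these precursors lie with Sprr1a and Ivl in the epidermal differentiation complex on chromosome 3. Between 90692632 and 93526287 the annotation lists 62 protein-coding genes, and 39 of them were counted 0 in all colon libraries, as were 20957 of all 53801 genes, coding or not. A further 12 had a mean under 10 normalized counts, 6 a mean of 10 to 1000, Sprr1a among them, and 5 a mean of at least 1000. Those 5 were S100a9 and S100a11 at the ends and the 3 Sprr2a copies. The nearest genes to Sprr1a on either side, Sprr3 and Sprr4, were at 0.

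**Figure D4:**
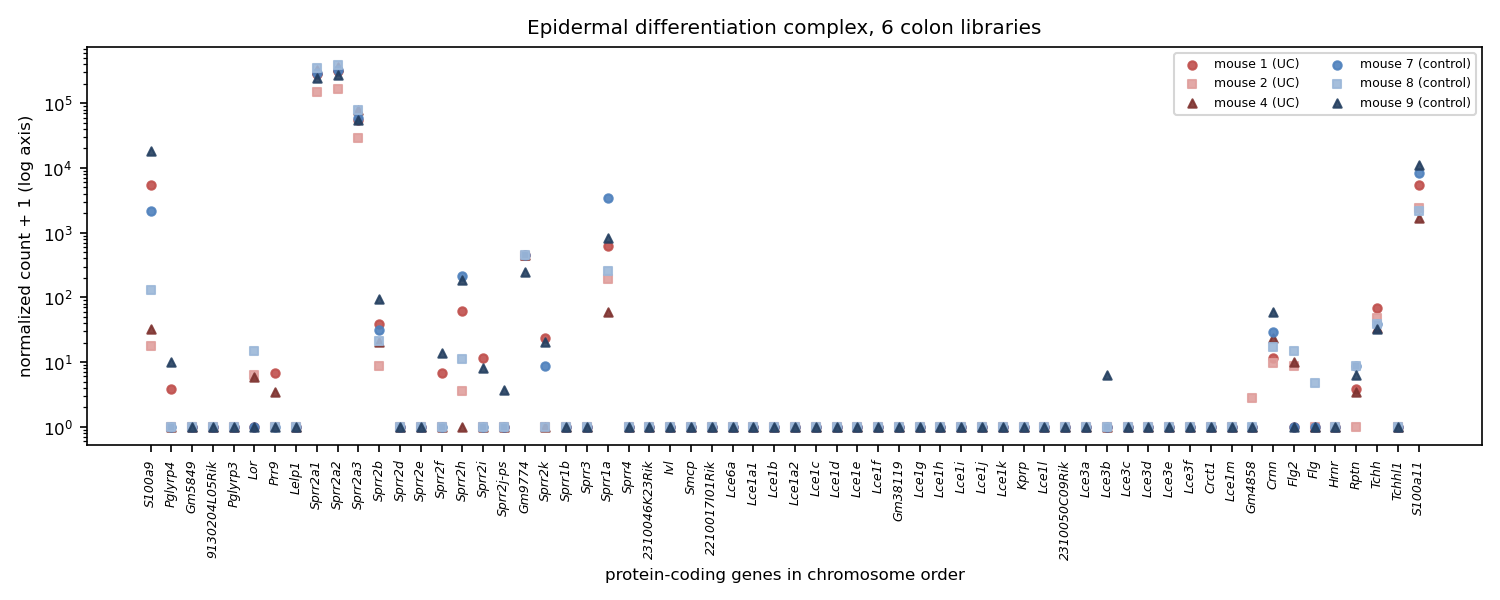
Normalized count + 1 (vertical log axis) of the 62 protein-coding genes of the epidermal differentiation complex in their order on the chromosome (horizontal axis), 1 mark per gene and colon library. Sprr2a1, Sprr2a2 and Sprr2a3 stand between 29359 and 389082 in all libraries, Sprr1a between 59.4 and 3394, and 39 genes lie at 0 throughout.

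Enzymes that make and attach the barrier lipids, on which Abca12 acts in skin, formed a list of 16 genes. Among those with the highest means were Ugcg, a glucosylceramide synthase, at 11243 to 18118 normalized counts, Slc27a4, a fatty acid transporter, at 3631 to 9054, and Elovl1, a fatty acid elongase, at 2170 to 4124. Slc27a4 had its highest values in mouse 1 (9054) and mouse 7 (6697), above 3631 to 4136 in the others. The lipoxygenases of the cornified lipid envelope, Alox12b and Aloxe3, were at 0 to 5.06 and 2.61 to 15.1. Cers3, the ceramide synthase of epidermis, had 175, 14.8 and 4.95 in mice 1, 2 and 4 and 206, 23.9 and 478 in mice 7, 8 and 9, with the same 3 highest libraries as Tgm1. Of the 11 genes with a mean of at least 10 normalized counts, 3 had their 2 highest libraries in mice 1 and 7, against 11.8% of all genes. Of the 12 tested, 0 were SDE (median log2FC -0.02). Slc27a4 was named by the rule on means, while Alox12b, Aloxe3 and Cers3 were named after their values were seen.

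Desmosomal and plakin genes that simple epithelia also use were high throughout. Dsp, desmoplakin, ran from 72931 to 122756 normalized counts, Dsg2 from 34859 to 57603, Jup (plakoglobin) from 19199 to 30458, and Dsc2 from 14193 to 36612. Dsg1a, Dsg1b and Dsg1c, the desmogleins of upper epidermis, were at 0 to 6.60. Of this list of 14 genes, 0 of the 10 tested were SDE, with a median log2FC of -0.20.

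Among 14 transcription factors of squamous epithelium, Ehf (16411 to 40164), Klf4 (19181 to 33989) and Ovol1 (930 to 2603) were among those with the highest means, and all of these are also expressed in gut epithelium. Tfap2c was counted 0 in every library and Tfap2a had at most 7.56 normalized counts. Bnc1, by contrast, was at 203 in mouse 1 and 38.7 in mouse 9, at 4.95 in mouse 4 and at 0 in the others. Grhl1 was highest in mouse 7 (473) and mouse 1 (223), with 92.3 to 176 elsewhere. Of the 12 with a mean of at least 10 normalized counts, 1 had its 2 highest libraries in mice 1 and 7, against 11.8% of all genes. None of the 11 tested was SDE (median log2FC 0.02). Of 17 epidermal proteases and their inhibitors, 6 were counted 0 in all colon libraries, and 5 of those are kallikreins. The 4 highest were St14, the membrane protease matriptase, at 24224 to 45276, Serpinb5 at 5061 to 8327, Prss8 at 2533 to 4787 and Serpinb2, which was at 126, 54.4 and 79.2 in mice 1, 7 and 9 and at 0 in the others. None of the 7 tested was SDE.

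Some genes that mark other places along the gut had the same highest libraries as members, and their part in these values was not tested. In bulk tissue, fewer cells of a type and less RNA per cell cannot be told apart. The posterior Hox genes, which pattern the hindgut end of the embryo, had their 3 highest libraries in mice 2, 4 and 8 for 8 of 9 listed genes, as did Tgm3 and Evpl, against 14.7% of all genes. Hoxb13 stood at 2471, 28174 and 30119 normalized counts for mice 1, 2 and 4 and at 2897, 30034 and 13692 for mice 7, 8 and 9. Hoxd13 had 619, 7619 and 7848 and then 1296, 9399 and 1472, and the lncRNA Hottip, which lies beside the HoxA cluster, 54.9, 1727 and 1994 and then 77.1, 1959 and 646. Hoxa13 ran from 461 in mouse 1 to 4817 in mouse 4, and Hoxa10 from 589 in mouse 7 to 2310 in mouse 8. The summed level of the list was 5324, 45757 and 51439 in mice 1, 2 and 4 and 6711, 53047 and 21341 in mice 7, 8 and 9. The libraries with the lowest sums, mice 1 and 7, were those with Abca12.

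Of 7 listed small intestine genes, 6 had a mean of at least 10 normalized counts. Of these 6, 5 had their 2 highest libraries in mice 1 and 7, as Abca12 did, against 11.8% of all genes. The summed level of the list was 15512, 827 and 930 in mice 1, 2 and 4 and 23132, 563 and 778 in mice 7, 8 and 9. The fatty acid binding protein gene Fabp2 had 12105, 557 and 710 and then 21076, 350 and 575. The alkaline phosphatase gene Alpi had 1881, 22.6 and 28.9 and then 1278, 46.6 and 74.7. Sucrase-isomaltase (Sis) had 1279, 18.3 and 11.5 and then 346, 3.78 and 0, and the ileal bile acid binding protein gene Fabp6 had 190, 180 and 168 and then 400, 134 and 123. The lactase gene Lct (5.40 to 29.0), Apoa1 (0 to 36.0) and Apoa4 (0 to 16.5), which define small intestinal absorptive cells, were low in all 6 libraries.

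Of 14 genes of simple colon epithelium, 5 had their 2 highest libraries in mice 1 and 7, against 11.8% of all genes. Cdx2, an intestinal identity factor, was at 12701, 1411 and 1216 in mice 1, 2 and 4 and at 11069, 1228 and 3808 in mice 7, 8 and 9. The goblet cell mucin gene Muc2 was at 1019389, 174587 and 151064 and then at 917317, 193612 and 242781. The surface enzyme gene Car1 was at 580934, 149804 and 234522 and then at 740809, 308201 and 60215, and Krt20 at 58168, 21145 and 33245 and then at 101608, 45693 and 34600. The anion exchanger gene Slc26a3 had its 3 highest values in mice 2, 4 and 8 (72441, 132812 and 128020). Lgals4 ran only from 207363 to 276762.

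The inflammation genes had the same 3 highest libraries as Sprr1a, Tgm1 and Dsg3, and so did some genes of epithelial repair. All 10 inflammation genes had their 3 highest libraries in mice 1, 7 and 9, and the summed level was 134730, 402 and 407 in mice 1, 2 and 4 and 43258, 560 and 155149 in mice 7, 8 and 9. The nitric oxide synthase gene Nos2 had 11352, 77.5 and 162 and then 15611, 151 and 46979. The acute phase gene Saa3 had 4701, 0 and 0 and then 3256, 0 and 26328, S100a9 had 5434, 16.5 and 31.3 and then 2137, 130 and 18061, and the matrix protease gene Mmp10 had 2411, 46.2 and 31.3 and then 759, 42.9 and 20513. Of 16 genes of epithelial repair, 9 had these 3 highest libraries and 7 did not, where 18.2% of all genes had them. One of the 9 was the stem cell antigen gene Ly6a, with 14318, 5293 and 5690 and then 14616, 6901 and 32318. Anxa1 ran from 13912 to 30605 and was the only gene of the list with an unadjusted p under 0.05 (log2FC -0.64, SE 0.24; edgeR, unadjusted p 0.0348, adjusted p 0.9999), and Anxa3 ran from 7320 to 16711. Tgm1 was highest in mouse 9, as were S100a8 and Nos2, whereas Sprr1a was highest in mouse 7 and Abca12 was at 25.2 in mouse 9.

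Lists for other tissues that lie near the colon were read as well. Skeletal muscle genes summed to 1041 to 2095 normalized counts per library, and Acta1 of skeletal muscle was at 411 to 1146 with its highest values in mice 1 and 7 (1111 and 1146), while Ckm ran from 66.6 to 897, Myh2 from 0 to 239, Myl1 from 32.2 to 129, and the fast myosin gene Myh4 was at 0 in all libraries. Hair and sebaceous gland genes summed to 68.4 to 134, most of it Tchh (31.5 to 68.2) and Awat2 (20.2 to 54.0), with Krt27 and Mc5r at 0 in most libraries. Urothelial genes summed to 410 to 1844, with Upk1a at 199 to 875, Upk3b at 0 to 1006 and Upk1b at 11.3 to 423, and Upk2, one of their defining genes, was at 0 in every library. In the list of the male reproductive tract, the epididymal defensin gene Defb37 had 789 normalized counts in mouse 1, 517 in mouse 7 and 0 in the other libraries, the pattern of Abca12, while 6 of the 11 genes, Lcn5, Lcn8 and Rnase9 among them, were counted 0 throughout. Crisp1 ran from 0 to 59.2, Svs5 from 0 to 18.0 and Svs2 from 0 to 10.4.

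The study named Abca12 beside 9 other colon genes, a list chosen on these same samples and so no independent evidence of its direction. Of the 9, 8 had their 3 highest libraries in mice 1, 7 and 9, against 18.2% of all genes. Among them 6 had their 2 highest in mice 1 and 7, against 11.8%. Reg3b, an antimicrobial lectin gene, had 985376, 7.84 and 0 in mice 1, 2 and 4 and 108204, 17.6 and 5504 in mice 7, 8 and 9. Sptssb, a subunit of the first enzyme of sphingolipid synthesis, had 20021, 0 and 4.12 and then 14270, 0 and 2729. Ugt2b5, a glucuronosyltransferase gene, had 3736, 0 and 2.47 and then 1566, 0 and 2.70, and like Abca12 it was nearly absent from mouse 9. Prss22, Ceacam12, Myot and Gml were at 839, 614, 219 and 458 in mouse 1, at 836, 632, 363 and 353 in mouse 7 and at 983, 299, 760 and 476 in mouse 9, with 0 in mice 2, 4 and 8. Of the 6 tested, 0 were SDE.

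The genes most like a member were ranked by Pearson's r of log2(normalized count + 1) over the 6 colon libraries, among 15862 genes with a mean of at least 100. For Abca12 they were Taldo1 (r 0.9996), Adra2a (0.9960), Nt5c2 (0.9947), Trak2 (0.9944) and Me1 (0.9942), and 15 genes had r of at least 0.99. Adra2a, an adrenergic receptor gene, had 3320, 130 and 104 in mice 1, 2 and 4 and 3811, 70.6 and 226 in mice 7, 8 and 9. Taldo1, of the pentose phosphate pathway, changed far less, with 16974, 11250 and 10485 and then 16964, 10556 and 12477. For Sprr1a the nearest were Rin3 (0.9918), Gm26917, B4galt6, Lyl1 and Hdac7 (0.9803), and for Trp63 they included Tub (0.9887), Gm20559, Cpne4 and Fhod3 (0.9814). These values describe 6 points that share their libraries, and they carry no test.

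In the blood, Abca12, Sprr1a, Sprr1b, Sprr3, Ivl and Dsg3 had 0 counts in all 6 libraries. Tgm1 was the member with the most blood counts, at 1144, 4 and 58 in mice 1, 2 and 4 and 342, 47 and 386 in mice 7, 8 and 9. As in the colon, its 3 highest libraries were mice 1, 7 and 9, although mouse 9 led in the colon and mouse 1 in the blood. Tgm3 had 0 to 55 counts, Evpl 0 to 13 and Trp63 0 to 3. The source of the Tgm1 counts in blood was not tested.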

How the data were processed

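Total RNA-seq was deposited for colon and whole blood of 6 mice. The authors removed ribosomal RNA (and globin RNA in blood), trimmed the reads with Flexbar, took out residual ribosomal reads with bbduk, mapped them to GRCm38 with STAR and quantified Ensembl genes with StringTie 1.3.4c, without a strand setting. The deposited counts are whole numbers derived from StringTie's coverage. The deposited normalized counts are a scaled signal: the authors divided every count of a library by its own factor, 0.791 to 1.212 in the colon. The tissues were normalized separately and are not compared in level.

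Groups follow the labels for tissue and disease state. A further label field names the opposite tissue for each sample. Replicates are separate mice by their numbers.

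Colon counts were fitted with edgeR 4.0.16 under R 4.3.3 (TMM factors 0.902 to 1.108, filterByExpr, glmQLFit, glmQLFTest, Benjamini-Hochberg adjustment). Alternatives were RLE factors, library size only, no filter, DESeq2 1.42.0, each library left out, and mice 1 and 7 left out. The fits were tested on simulated data first. That simulation gave every gene the same dispersion and had no mixed groups, unlike the labelled groups here, so it checks only the working of the fits. Gene symbols and positions came from GENCODE vM21 (53620 of 53801 identifiers), and all 237 list genes were found. The pseudocount was 1.

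The members and the gene lists were chosen with earlier results of these data known. Named genes are the members, the 4 highest genes of each list by mean, Krt5, Krt14, Krt13, Krt4, Krt8, Krt20, S100a8, Acta1, Hottip, Hoxd13 and Defb37, the genes that the study named with Abca12, and the 5 nearest genes of Abca12, Sprr1a and Trp63. All others were picked with their values in view. Some genes that the rule names are not reported here.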

Additional observations from a re-analysis of the deposited data

How the results depend on the processing

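The number of members called SDE was 0 under all alternatives run, with no adjusted p for Abca12 from DESeq2. The number of all genes called was 1, and it moved to 6 with DESeq2, to 0 without mice 1 and 7, and ran from 0 to 0 over the 6 fits that each left out 1 library (those fits have fewer samples by construction). Of 75 log2FC values of members under alternatives, 63 kept their direction and 12 turned it, all in genes with no call. Abca12, at -0.01, turned to 0.02 with DESeq2, 0.0013 with library size only and 0.03 without a filter, and ran from -12.51 to 9.23 with 1 library left out. The leave-one-out range was -0.46 to 0.80 for Evpl, -0.03 to 2.58 for Tgm3 and -0.85 to 0.90 for Trp63, and Trp63 was at 0.35 without mice 1 and 7. Abca12 and Dsg3 gave no value without mice 1 and 7, since they did not pass the filter. The ratio of the second to the third highest Abca12 library was 849 as CPM by library size and 953 as CPM with TMM factors, against 955, and the number of members highest in mice 1 and 7 stayed at 2. No paired analysis was possible because the groups compared share no mouse number. Low counts limit Trp63, Dsg3 and the genes at 0.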

Other observations

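The genes in this part were chosen after their values were seen. With the 2 highest colon values in mice 1 and 7 and the second at least 100 times the third, or the third at 0, and a mean of at least 10, 25 genes had the pattern of Abca12, that gene included. The most abundant after Abca12 was Slc51a, a subunit of the bile acid exporter of the ileum, with 5784, 2.61 and 4.95 normalized counts in mice 1, 2 and 4 and 4074, 13.9 and 6.30 in mice 7, 8 and 9. The regenerating protein gene Reg3a had 219 in mouse 1 and 41.7 in mouse 7, the drug-metabolising enzyme gene Cyp3a25 had 332 and 41.7, and the morphogen gene Shh had 30.3 and 30.4, each with 0 in the other 4 libraries. Hoxc10, a member of the HoxC cluster, had 31.3 and 34.1 and 0 elsewhere.

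Relatives of the members were read in lists added after their values were seen. Tgm2, the tissue transglutaminase, had 29040, 7744 and 5875 normalized counts in mice 1, 2 and 4 and 44335, 4518 and 60249 in mice 7, 8 and 9, so its 3 highest libraries were those of Tgm1. Of 12 ABCA transporter genes, Abca12 included, 2 had their 2 highest libraries in mice 1 and 7, against 11.8% of all genes. Abca1 ran from 4287 to 8879 and Abca3 from 8425 to 11236, and Abca13 from 149 in mouse 1 to 1467 in mouse 4. Of the other p53 family genes, Trp53 ran from 1356 to 2332, and Trp73 had 2.84, 20.9 and 44.5 in mice 1, 2 and 4 and 0, 70.6 and 17.1 in mice 7, 8 and 9. None of the tested genes of these lists was SDE.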
